A study of Mus musculus with 20 samples.

Results

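Dixdc1, Scel, Apcdd1, Tubb2b, Mreg, Khdc1a, Garem1, Ccdc88a and Cdhr1 are 9 genes whose signal was far higher in mature natural killer (NK) cells that lack the transcription factor Ets1 than in NK cells that have it. They were picked because their difference between the NK genotypes was among the 10 largest positive ones in these arrays, so that difference is given below as a description, with no test. They are 9 of the 18194 genes that the array measures, and their symbols annotate 21 of its 34958 probe sets with a single gene symbol. A probe set is a group of short array probes designed for a transcript, and its value here is the log2 of a normalised brightness. Some probe sets are shared by several genes, and whether the probes of a set also bind other transcripts was not analysed here. For each gene the probe set with the highest mean over all arrays was used first, and the others are set beside it. The value of 1 probe set cannot be set against that of another.

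The study hybridised RNA from 20 sorted mouse bone marrow samples to Affymetrix arrays, with the stated goal of finding genes in NK cells that depend on Ets1. The Ets1-deficient mature NK cells (2 samples, Rag2-deficient and Ets1-deficient, strain 129) and the Ets1-present mature NK cells (2 samples, Rag2-deficient with Ets1 intact, strain 129) both lack Rag2, so their hosts make no mature T or B cells. The other 16 samples were 7 wild-type populations of strain C57bl/6. CLP (common lymphoid progenitors) and GMP (granulocyte-monocyte progenitors) had 3 samples each. There were 2 samples each of HSC (haematopoietic stem cells), MPP (multipotent progenitors), LMPP (MPP primed for the lymphoid lineage), pro-B cells and CD4 T cells. All mice were 8 to 14 weeks old. Strain, Rag2 genotype and cell type cannot be told apart between the NK samples and the wild-type ones, and no test was made across them. Whether the replicates of a group are separate animals is not stated in the labels, and the p-values reflect only how far these samples spread, which may be technical.

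Ets1 belongs to a family of DNA-binding proteins that recognise a GGAA core, and in mice it is needed for normal NK cell development. The 9 genes are known from other tissues and do not form 1 pathway. Dixdc1 is a relative of Dishevelled and Axin that promotes Wnt signalling, while Apcdd1 is a membrane protein that inhibits it. Tubb2b is a beta-tubulin best known from developing neurons, and Ccdc88a (girdin) binds actin, is phosphorylated by AKT and activates inhibitory G proteins. Garem1 is an adaptor that joins growth factor receptors to GRB2 and the ERK kinases. Mreg (melanoregulin) acts in the transport of melanosomes and other lysosome-related organelles. Scel (sciellin) is a precursor of the cornified envelope of skin, and Cdhr1 is a cadherin of photoreceptor outer segments. Khdc1a is a KH-domain protein of eggs and early embryos that was described in mouse thymocytes as a gene downstream of the nuclear receptor Nr4a1.

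RefSeq (GRCm38.p6) promoter windows were found for 5 of the 9 genes, in 7 windows. Those of Dixdc1, the largest difference, of Mreg and of Cdhr1 are shown, because the factor that was removed binds GGAA. Each is the 250 bases before an annotated start on the minus strand, at chr9:50737736-50737985 for Dixdc1, chr1:72212315-72212564 for Mreg and chr14:37098348-37098597 for Cdhr1. Capitals mark GGAA or its complement TTCC, searched on both strands.
Dixdc1: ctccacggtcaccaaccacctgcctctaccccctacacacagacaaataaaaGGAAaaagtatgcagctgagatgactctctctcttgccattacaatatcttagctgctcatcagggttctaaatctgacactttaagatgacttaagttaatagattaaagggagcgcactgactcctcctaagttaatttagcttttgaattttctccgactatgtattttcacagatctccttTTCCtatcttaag
Mreg: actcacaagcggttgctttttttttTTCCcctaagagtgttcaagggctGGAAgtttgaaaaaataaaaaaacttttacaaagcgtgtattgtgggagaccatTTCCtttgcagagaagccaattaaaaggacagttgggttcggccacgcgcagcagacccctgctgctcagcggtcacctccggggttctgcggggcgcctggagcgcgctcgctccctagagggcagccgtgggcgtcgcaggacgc
Cdhr1: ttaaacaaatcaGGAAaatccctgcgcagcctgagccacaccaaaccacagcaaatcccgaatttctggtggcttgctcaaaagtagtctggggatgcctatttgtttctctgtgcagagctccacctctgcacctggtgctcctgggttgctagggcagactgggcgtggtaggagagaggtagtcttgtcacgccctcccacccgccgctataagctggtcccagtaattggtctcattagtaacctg

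The Mreg window held 3 such matches, the Dixdc1 window 2 and the Cdhr1 window 1. Those of Scel and Ccdc88a held 2 each. Among 32851 RefSeq windows of the same length, 93.4% held at least 1 match, with a median of 3. The longer form CCGGAA was in none of the 7 windows and in 12.0% of all windows. CAGGAA, which overlaps GGAA, was in the Cdhr1 window alone of the 7 and in 25.7% of all windows. These are matches of letters in 1 window per start, and they do not show binding.

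The arrays had median log2 values of 3.78 to 4.04, and this median is used below as a mark of low signal. Arrays of 1 group correlated at r = 0.918 to 0.997 over the 13479 genes that passed the filter on low signal, with 1 probe set each. The 3′ minus 5′ signal of actin, a sign of RNA integrity and amplification, was 2.86 and 4.07 in the Ets1-deficient NK arrays, against 2.90 and 2.76 in the Ets1-present ones. It was 3.26 to 5.27 in CLP, 6.44 to 6.68 in GMP and 0.97 to 3.11 in the other wild-type populations. Ets1 itself had 4 probe sets, and both Ets1-deficient NK arrays were below both Ets1-present arrays in each. The largest of these differences was at 6.53 and 7.22 in Ets1-deficient NK cells, against 8.34 and 8.51 in Ets1-present NK cells. The probe set with the highest mean stood at 11.28 and 10.85, against 11.34 and 11.45. The labels do not give where the deletion lies relative to these probes.

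In the NK samples, the main probe set of all 9 genes was higher in both Ets1-deficient arrays than in both Ets1-present arrays, which the choice of genes fixes. Of all genes tested, 28.4% were arranged this way, and 1.59% passed limma's test as higher in Ets1-deficient cells. The differences in log2 units ran from 7.06 ± 0.35 (SE) for Dixdc1 down to 3.28 ± 0.31 for Cdhr1. They are approximate sizes, because the Ets1-present level of every member except Mreg lay below the array median. Cd3g, a subunit of the T cell receptor complex, lay within this range at 3.96 ± 0.24. Just below the smallest member were Pdia5 at 3.19, Inpp4b at 3.09 and Stox2 at 3.09, so the 9 genes are not separated from the next ones by a gap. As these are bulk samples, more cells that carry a transcript and more of it per cell cannot be told apart.

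**Figure D1:**
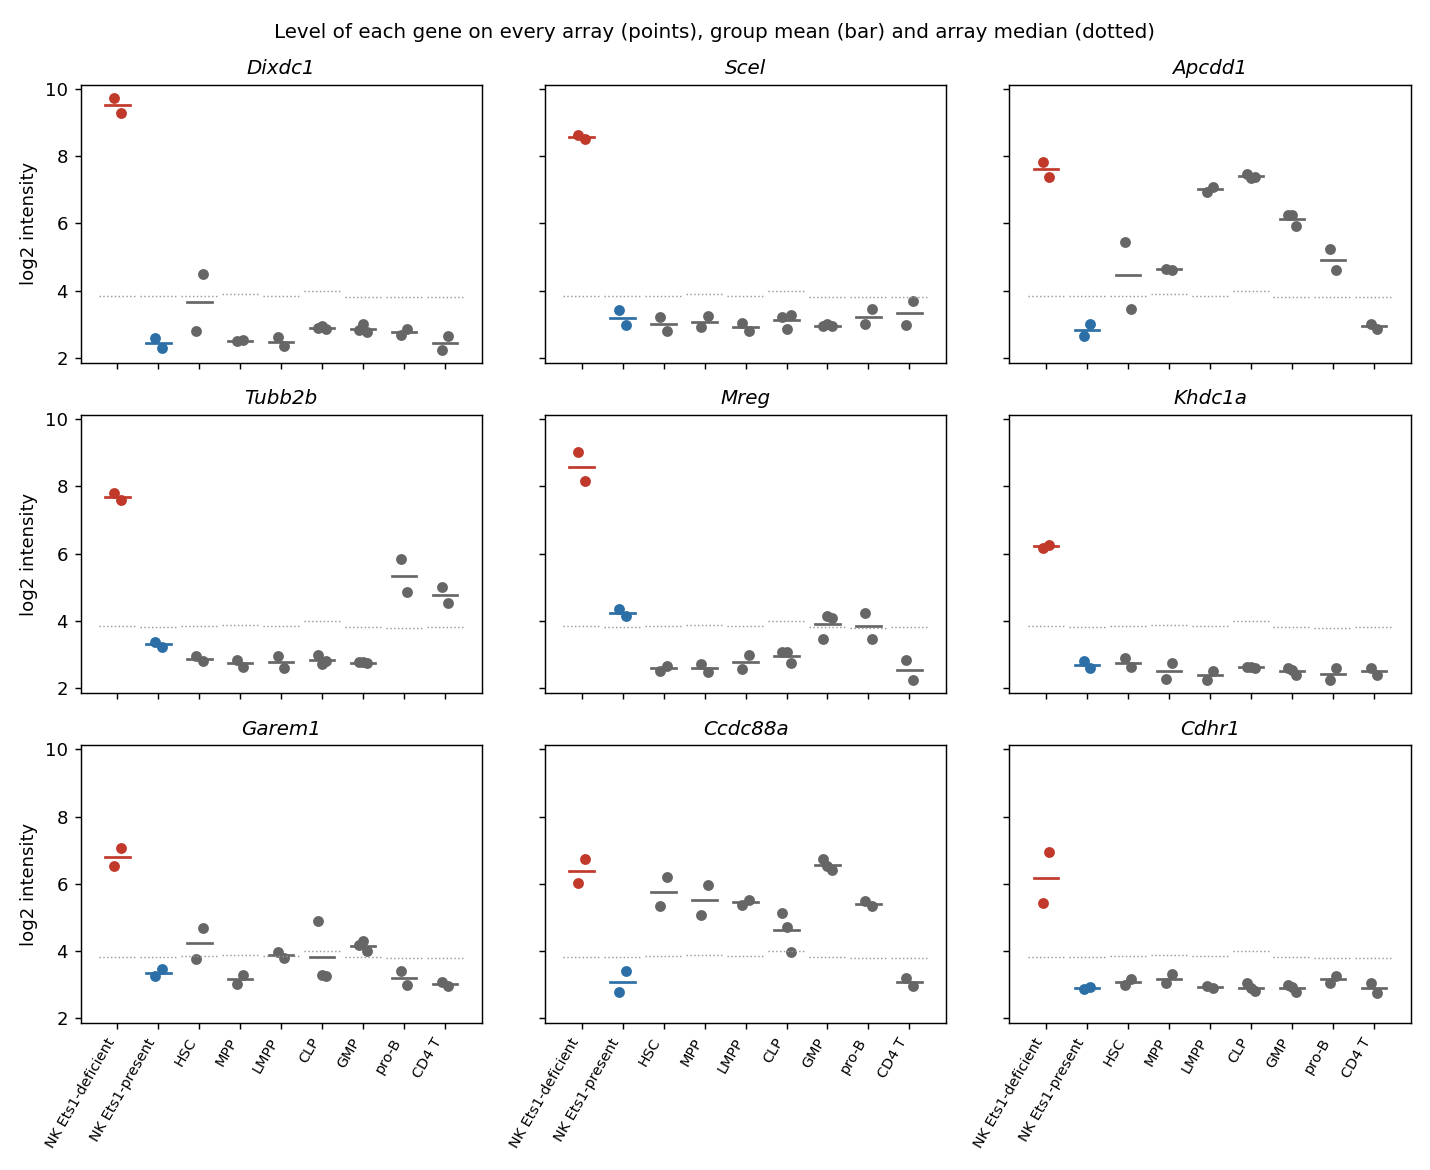
Log2 intensity of the main probe set of each of the 9 genes on every array, with the 9 groups along the axis, points for arrays, bars for group means and dotted lines for array medians. The Ets1-deficient NK arrays lie well above the Ets1-present ones for every gene, while Apcdd1 and Ccdc88a are also high in wild-type progenitors.

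Among the Wnt regulators, Dixdc1 had 9.74 and 9.28 in Ets1-deficient NK cells, against 2.59 and 2.30 in Ets1-present NK cells. The Ets1-present level was the lowest group mean of the 9, although its arrays overlapped those of CD4 T cells, LMPP and MPP. In the wild-type arrays Dixdc1 was below the array median on 15 of 16, at 2.24 to 3.00, and stood at 4.50 on the second HSC array. Apcdd1 had 7.84 and 7.38 in Ets1-deficient NK cells, against 2.65 and 3.02 in Ets1-present NK cells, a difference of 4.77 ± 0.42 (SE). Unlike Dixdc1, Apcdd1 was strongly expressed in wild-type cells. It had 7.47, 7.35 and 7.38 in CLP, which overlapped the Ets1-deficient NK cells, and 6.93 and 7.09 in LMPP. GMP had 6.25, 6.25 and 5.92, pro-B cells 5.22 and 4.61, and MPP 4.64 and 4.62. The HSC arrays differed from each other, at 5.45 and 3.45. CD4 T cells, at 3.02 and 2.87, overlapped the Ets1-present NK cells at the low end.

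Of the cytoskeletal genes, Tubb2b had 7.80 and 7.60 in Ets1-deficient NK cells, against 3.37 and 3.23 in Ets1-present NK cells, a difference of 4.40 ± 0.27. Pro-B cells at 5.83 and 4.86 and CD4 T cells at 5.02 and 4.53 were above the array median. HSC, MPP, LMPP, CLP and GMP arrays all lay between 2.60 and 2.97. Tubb2b signal was thus present in both wild-type lymphocyte populations and low in all 5 progenitor populations. Ccdc88a had 6.03 and 6.74 in Ets1-deficient NK cells, against 2.78 and 3.40 in Ets1-present NK cells, a difference of 3.30 ± 0.39. GMP had the highest group mean for Ccdc88a, at 6.73, 6.53 and 6.42, and overlapped the Ets1-deficient NK cells. The remaining progenitors and pro-B cells lay between 3.98 and 6.19. CD4 T cells, at 3.21 and 2.95, overlapped the Ets1-present NK cells. The mean in Ets1-deficient NK cells, 6.39 ± 0.50 (SD, n = 2), was thus below the 6.56 ± 0.16 of GMP (n = 3), and the groups did not separate.

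Garem1, the signalling adaptor, had 6.52 and 7.07 in Ets1-deficient NK cells, against 3.26 and 3.46 in Ets1-present NK cells, a difference of 3.44 ± 0.41. Among wild-type cells, HSC at 3.75 and 4.70 and GMP at 4.16 ± 0.15 (SD, n = 3) had the highest Garem1 means and overlapped each other. The single highest value, 4.88, was on 1 CLP array whose replicates were at 3.30 and 3.25, and the lowest was 2.97. Mreg, the organelle transport gene, had 9.01 and 8.16 in Ets1-deficient NK cells, against 4.34 and 4.14 in Ets1-present NK cells, a difference of 4.35 ± 0.32. Mreg was the member with the highest rank in Ets1-present NK cells, which had the second highest of the 9 group means. GMP followed at 3.47, 4.13 and 4.09 and pro-B cells at 4.23 and 3.47, and the other wild-type arrays lay between 2.25 and 3.07.

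The remaining members had low signal outside the Ets1-deficient NK cells. Scel, the cornified envelope precursor, had 8.62 and 8.51 in Ets1-deficient NK cells, against 3.42 and 2.97 in Ets1-present NK cells, and 2.79 to 3.69 in the wild-type arrays. Khdc1a had 6.18 and 6.25 in Ets1-deficient NK cells, against 2.80 and 2.60 in Ets1-present NK cells, and 2.23 to 2.88 in the wild-type arrays. Cdhr1, the photoreceptor cadherin, had 5.43 and 6.94 in Ets1-deficient NK cells, against 2.88 and 2.93 in Ets1-present NK cells, and 2.75 to 3.31 in the wild-type arrays. Cdhr1 had the widest spread between the Ets1-deficient replicates, and its difference was 4.03 or 2.53 when 1 or the other of them was left out. None of the 18 arrays outside the Ets1-deficient group was above its array median for Scel, Khdc1a or Cdhr1, and 1 was for Dixdc1.

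The probe sets of a gene did not all show the difference. Of the 21 probe sets, 16 had both Ets1-deficient arrays above both Ets1-present ones, but 9 of the 16 are the main sets, whose order the choice of genes fixes. This order was seen in 24.0% of all probe sets on the array, and nothing is read from that share, since the sets come from the contrast used to pick the genes. Tubb2b, Mreg, Khdc1a and Cdhr1 have a single probe set of their own. The other 5 genes have 12 further probe sets, of which 7 were arranged this way and 3 differed by more than 1 log2 unit. All 3 further sets of Dixdc1 were higher in Ets1-deficient NK cells, by 1.05, 0.94 and 0.79, with only 1 Ets1-deficient array above its median in each of 2 sets and none in the other. For Apcdd1, the further sets were higher by 1.97 and 1.37, at 5.50 and 4.70 against 3.31 and 2.95, and at 4.68 and 3.88 against 3.06 and 2.76. Its other 3 sets differed by 0.20, 0.07 and 0.00, and in the last 2 the genotypes overlapped. Ccdc88a had 1 further set with 5.38 and 5.82 against 5.29 and 4.42, a difference of 0.75, and another that overlapped. The further sets of Scel and Garem1 were at 2.34 and 2.32 against 2.51 and 2.45, and at 2.68 and 2.50 against 2.54 and 2.92. A probe set shared by Tubb2b and the pseudogene Tubb2a-ps2 stayed between 2.23 and 3.01 on all 20 arrays. The difference therefore rests on 1 probe set for Scel and Garem1, as it does for the 4 genes with a single probe set. For Ccdc88a, only the main set differed by more than 1 log2 unit. Where the probes lie in each transcript was not analysed here.

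**Figure D2:**
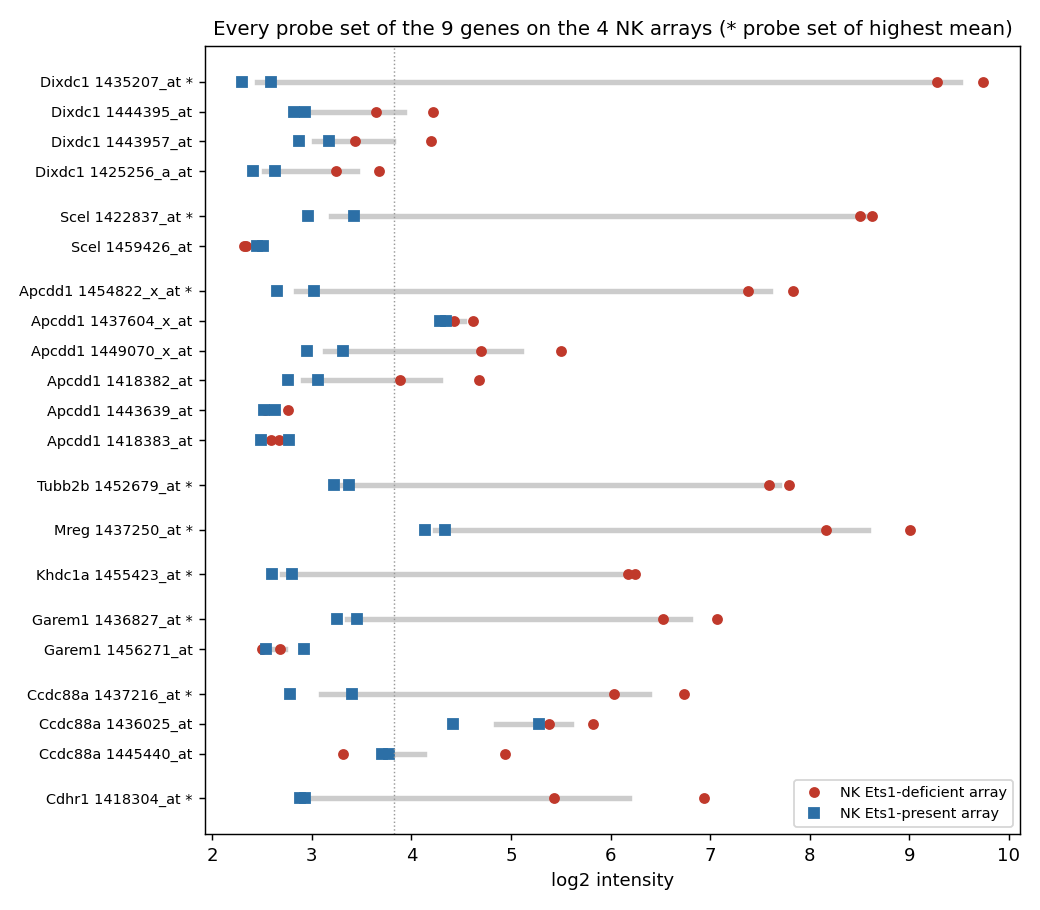
Log2 intensity of each of the 21 probe sets on the 2 Ets1-deficient and the 2 Ets1-present NK arrays, grouped by gene. The main sets show wide gaps, whereas further sets of Apcdd1, Ccdc88a, Scel and Garem1 include ones with no gap between the genotypes.

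The wild-type populations took no part in choosing the genes, and there the levels were compared over 13479 tested genes by limma's moderated F-test with Benjamini-Hochberg adjustment. Ccdc88a, Apcdd1, Tubb2b, Mreg and Garem1 differed among the 7 populations, which is 5 of 9 members where 72.6% of all tested genes did. The share cannot be read as a property of the members, since Dixdc1, Scel, Khdc1a and Cdhr1 passed the filter on low signal only through the Ets1-deficient NK arrays. Apcdd1 had the widest range of group means, 4.46 log2 units between CLP and CD4 T cells (adjusted p = 1.15e-07). The range was 3.48 for Ccdc88a (adjusted p = 4.81e-06), 2.60 for Tubb2b (adjusted p = 4.10e-08) and 1.36 for Mreg (adjusted p = 0.000529). Garem1 was near the threshold, with a range of 1.20 (adjusted p = 0.0324). Its call was lost after repeated quantile normalisation and when any of 6 arrays was left out, namely the first MPP, the second pro-B, either CD4 T, and the first or second GMP array (adjusted p between 0.0609 and 0.0774). Dixdc1 missed it at 1.20 (adjusted p = 0.0523), and Scel, Khdc1a and Cdhr1 had ranges of 0.41, 0.37 and 0.28 (adjusted p = 0.688, 0.565 and 0.900).

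Each population was then set against the mean of the other 6 in the same limma fit. Apcdd1, the Wnt inhibitor, was higher in CLP at 7.40 against 5.02 (difference 2.39 ± 0.27 SE, adjusted p = 2.75e-06), where 16.1% of tested genes were higher. LMPP, with 5.31% of genes higher, had 7.01 against 5.08 for Apcdd1 (1.93 ± 0.32, adjusted p = 0.000604). It was also higher in GMP (0.92 ± 0.27, adjusted p = 0.0101), where 24.5% of genes were. Apcdd1 was lower in CD4 T cells at 2.94 against 5.76 (-2.82 ± 0.32, adjusted p = 8.55e-07), where 19.1% of genes were lower. Its lower level in HSC (-1.05 ± 0.32, adjusted p = 0.0204, background 8.24%) rested on the second HSC array, without which the difference was -0.05. The GMP difference was -0.0036 when the 6 Apcdd1 probe sets were averaged, and the call was lost without the first or the second GMP array (0.86 in both cases). CLP and GMP were also the populations with the largest actin 3′ minus 5′ signal, and its part in these differences was not tested.

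Tubb2b was higher in pro-B cells at 5.34 against 3.13 (2.22 ± 0.20, adjusted p = 1.50e-07), where 11.2% of genes were higher. In CD4 T cells, where 21.5% of genes were higher, it had 4.77 against 3.22 (1.55 ± 0.20, adjusted p = 4.51e-06). It was lower in each of the 5 progenitor populations, by 0.66 to 0.82 log2 units with adjusted p between 0.000875 and 0.0210. The HSC, MPP and LMPP calls were each lost when either array of that population was left out (-0.58 to -0.96), and centring the arrays on housekeeping genes turned the CLP difference to 0.27. The matching backgrounds, beside that for HSC above, were 9.13% of genes lower in MPP, 3.84% in LMPP, 31.3% in CLP and 19.5% in GMP. Mreg was higher in GMP at 3.90 against 2.89 (1.01 ± 0.20, adjusted p = 0.000506). It was also higher in pro-B cells at 3.85 against 2.89 (0.95 ± 0.24, adjusted p = 0.00593), a call that was lost without the first pro-B array, where the difference was 0.57. Ccdc88a was higher in GMP at 6.56 against 4.97 (1.59 ± 0.25, adjusted p = 4.72e-05) and lower in CD4 T cells at 3.08 against 5.55 (-2.47 ± 0.29, adjusted p = 1.60e-06). It was lower in CLP by a smaller amount (-0.68 ± 0.25, adjusted p = 0.0310), and without the third CLP array the difference was -0.37 and was not called. The Ccdc88a difference in CLP was 0.31 after housekeeping centring. For Dixdc1, HSC had 3.65 against 2.66 (0.99 ± 0.27, adjusted p = 0.00978, where 16.2% of genes were higher), and without the second HSC array the difference was 0.14 and was not called. Since Dixdc1 entered the test only through the Ets1-deficient NK arrays and was above the array median on that 1 HSC array alone, this value is not read as a difference of the population. For Garem1 no single population was called, and none was for Scel, Khdc1a or Cdhr1. No member was called higher in MPP, where 6.83% of genes were.

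**Figure D3:**
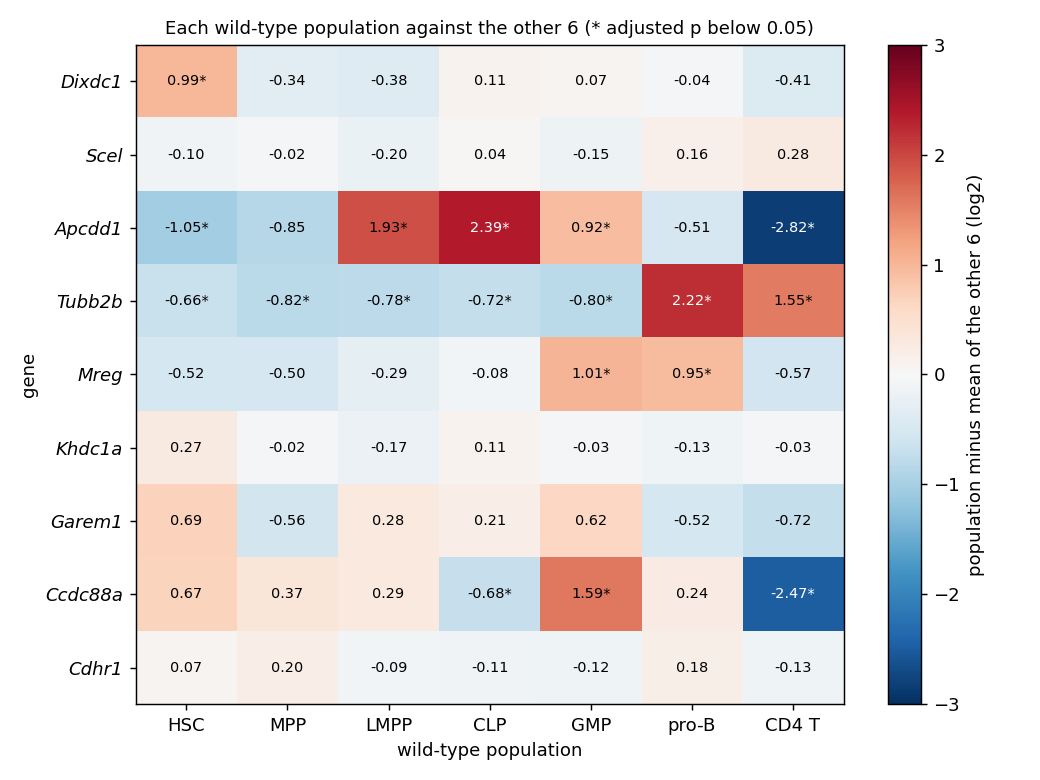
Difference of each wild-type population from the mean of the other 6, in log2 units, for each of the 9 genes, with called differences marked. Apcdd1, Tubb2b and Ccdc88a carry the largest ones, and Scel, Khdc1a and Cdhr1 stay close to 0.

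Further probe sets were fitted in the same way over 29047 tested probe sets, and 4 of the 12 passed the filter on low signal. For Apcdd1, 2 of its 3 that passed differed among the wild-type populations by limma's F-test, with ranges of 2.39 and 1.75 (adjusted p = 4.89e-05 and 0.000304), and the other did not (1.07, adjusted p = 0.141). Those 2 followed the main Apcdd1 set over the 16 wild-type arrays at r = 0.87 and 0.82. The further Ccdc88a set that passed also differed among populations (range 2.16, adjusted p = 9.92e-05). It followed the main set at r = 0.88 over the wild-type arrays, but at 0.55 over all 20. In Ets1-present NK cells this further set had a mean of 4.85, with both arrays above the median, against 3.09 in the main set. For Dixdc1, Scel and Garem1 the r over the wild-type arrays was between -0.45 and 0.04, and most values there were low. These correlations share arrays and normalisation and are given as descriptions.

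The pathways in which the 9 genes act were followed through 8 lists of other genes, compared between Ets1-deficient and Ets1-present NK cells by limma with adjustment over all 13479 genes. Of 218 listed non-members tested, 4 rose and 3 fell in Ets1-deficient NK cells, where 1.59% of all genes rose and 2.23% fell. None of 56 Wnt pathway genes passed the test, with 3 at an unadjusted p below 0.05, and the largest difference was that of Znrf3, a ligase that removes Wnt receptors (-0.98 ± 0.45, adjusted p = 0.363). The median over the Wnt list was 0.07, against 0.01 over all genes. None of 26 tubulins and microtubule partners passed, with 2 at an unadjusted p below 0.05. The closest paralogue on the array, Tubb2a, had 8.31 and 8.00 in Ets1-deficient NK cells, against 7.92 and 8.30 in Ets1-present NK cells. None of 31 genes of melanosome and lytic granule transport passed (3 at an unadjusted p below 0.05), with the motor gene Myo5a at 1.34 ± 0.62 (adjusted p = 0.360) and another, Myo7a, at -1.27 ± 0.46 (adjusted p = 0.171). None of 24 genes of the girdin family, AKT and inhibitory G proteins passed (3 at an unadjusted p below 0.05), and Gpsm2 had the largest difference (1.16 ± 0.51, adjusted p = 0.316). The medians of these 3 lists were 0.11, 0.03 and -0.06. In simulated data this comparison recovered 23.5% of changes of 1 log2 unit, so a gene that did not pass may still have changed.

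Genes of other lists did change. In the list of cornified envelope and epithelial genes, the partners of Scel, 2 of 23 rose and none fell. Dsp (desmoplakin), which anchors keratin to desmosomes, had 9.92 and 9.68 in Ets1-deficient NK cells, against 7.21 and 7.46 in Ets1-present NK cells (2.47 ± 0.25, adjusted p = 4.32e-06). Evpl (envoplakin), a scaffold of the cornified envelope, had 6.13 and 6.36 against 4.74 and 4.58 (1.58 ± 0.28, adjusted p = 0.00195). A second Dsp probe set was higher by 2.08, and its remaining, dim set differed by 0.01. Of 31 genes of GRB2 and ERK signalling, 1 rose and 1 fell, with 8 at an unadjusted p below 0.05. Spred2, an inhibitor of the ERK cascade, had 8.67 and 8.50 in Ets1-deficient NK cells, against 6.33 and 6.65 in Ets1-present NK cells (2.10 ± 0.34, adjusted p = 0.000883). Its 4 further probe sets differed by only -0.08 to 0.13, and the mean over all its sets was not called (0.42, adjusted p = 0.235). Grap, an adaptor related to GRB2, had 5.43 and 6.37 against 7.44 and 7.34 (-1.49 ± 0.39, adjusted p = 0.0354). The medians were 0.02 for both lists.

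In the list of KH-domain and oocyte genes, 1 of 11 rose and none fell. This was Khdc1b, the neighbour and close relative of Khdc1a, with 4.30 and 5.86 in Ets1-deficient NK cells, against 2.58 and 2.61 in Ets1-present NK cells (2.49 ± 0.32, adjusted p = 7.78e-05). A second probe set of Khdc1b had 6.64 and 7.75 against 2.52 and 2.10, and neither set was above the array median on any of the 16 wild-type arrays. Whether probes for Khdc1a and Khdc1b bind both transcripts was not analysed here, so the paralogues are uncertain as separate measurements. Of 16 photoreceptor and retinal cadherin genes, the group of Cdhr1, none rose and 2 fell, with 3 at an unadjusted p below 0.05. Prom1, a membrane protein of photoreceptor discs and of progenitor cells, had 3.42 and 4.18 in Ets1-deficient NK cells, against 5.22 and 4.96 in Ets1-present NK cells (-1.29 ± 0.26, adjusted p = 0.00625). Rom1, a disc rim protein, had 3.89 and 4.41 against 5.21 and 5.07 (-0.99 ± 0.25, adjusted p = 0.0290). None of the 3 genes that fell, Grap, Prom1 and Rom1, was called after housekeeping centring, though each stayed lower (-1.68, -1.48 and -1.18), nor when the first Ets1-present or the first Ets1-deficient array was left out. The list medians were 0.09 for the KH-domain list and 0.05 for the photoreceptor list.

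**Figure D4:**
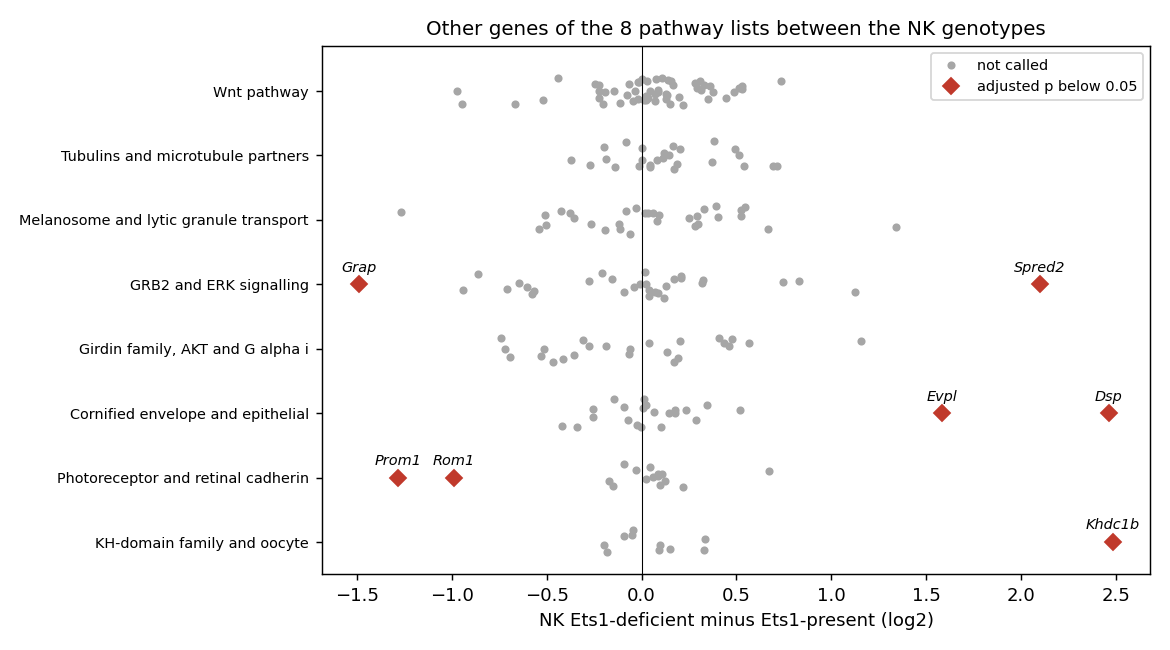
Difference between Ets1-deficient and Ets1-present NK cells in log2 units for the tested non-members of the 8 pathway lists, 1 row per list, with called genes named. The 4 genes that rose are Dsp, Khdc1b, Spred2 and Evpl, and the 3 that fell are Grap, Prom1 and Rom1.

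The genes next to the members in chromosome order were compared between the NK genotypes in the same fit, taking the nearest tested gene on either side. Up to 4 other protein-coding genes lay between a member and this gene, and 1 lay on either side of Khdc1a. Of these 18 neighbours, 3 rose, none fell and 15 were not called, with differences of -0.64 to 0.69 for the 15. Of all tested genes, 1.59% rose and 2.23% fell. The 18 neighbours include Tubb2a beside Tubb2b, and Khdc1b. Both neighbours of Khdc1a rose, Khdc1b as above and Tmem14a, a small membrane protein, by 1.37 ± 0.29 (limma, adjusted p = 0.00846). Next to Mreg, Pecr, a peroxisomal enzyme of fatty acid metabolism, rose by 1.16 ± 0.30 (adjusted p = 0.0303), while Fn1 on the other side differed by -0.03. Beside Dixdc1, the largest difference of all, Dlat differed by 0.69 and Cryab by -0.23. The neighbours of Scel differed by -0.27 (Mycbp2) and 0.40 (Slain1), and those of Apcdd1 by 0.10 (Fbxo38) and -0.37 (Napg). The Pecr call was lost when any 1 NK array was left out (differences of 0.96 to 1.36). That of Tmem14a was lost without the first or second Ets1-present array (1.34 and 1.40) or the second Ets1-deficient one (1.00).

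**Figure D5:**
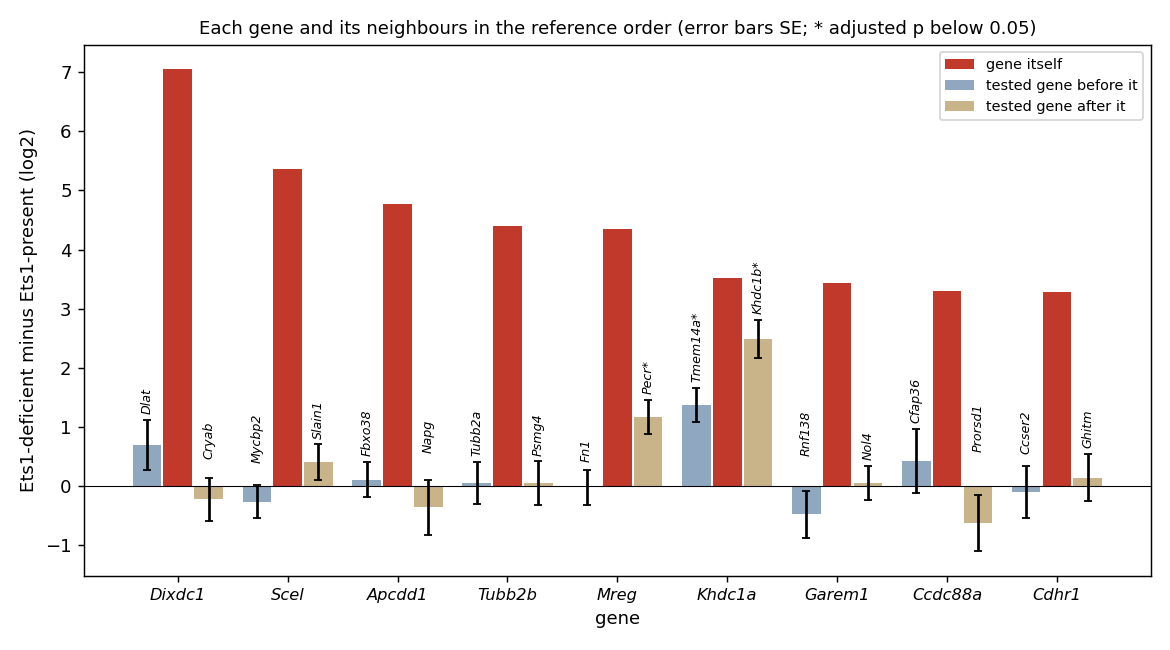
Difference between Ets1-deficient and Ets1-present NK cells in log2 units for each member and the nearest tested gene on either side in chromosome order, with error bars (SE) on the neighbours. Khdc1b, Tmem14a and Pecr are the neighbours that rose, and the others lie between -0.64 and 0.69.

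The genes most like each member over all 20 arrays were found by Pearson correlation, which for most members is set by their 1 high group. Sgsm2 was among the 3 most alike for 5 members, with r of 0.90 to 0.97, and Catsperd for 4, with r of 0.93 to 0.98. Ms4a15 was among them for 3 members (0.94 to 0.96). Sgsm2 had group means of 6.37 in Ets1-deficient NK cells and 4.39 in Ets1-present NK cells, and Catsperd 6.14 and 3.15. Khdc1b was the most alike to Cdhr1, at r = 0.97. Tubb2b was most like Ddc (aromatic L-amino acid decarboxylase), at r = 0.97, and that gene had 7.37 in Ets1-deficient NK cells and 4.37 in Ets1-present NK cells. Apcdd1 and Ccdc88a, the members that were also high in wild-type progenitors, were most like Syncrip (r = 0.83) and Tlcd1 (r = 0.86).

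Marker genes of other cell types were followed in the same NK comparison, where 1.59% of all tested genes rose and 2.23% fell. Among 14 T cell markers, Cd3g and Cd3d rose, and none of the other 12 passed the test, with differences from -0.74 (Lat) to 0.79 (Bcl11b) and a list median of -0.06. In this list 3 genes were at an unadjusted p below 0.05. The list's summed intensity was 1427 to 1498 in Ets1-deficient NK cells, against 1048 to 1164 in Ets1-present NK cells. Cd3g had 8.69 and 8.36 in Ets1-deficient NK cells, against 4.51 and 4.62 in Ets1-present NK cells, whereas Cd3e had 5.08 and 5.04 against 5.18 and 5.09. Of the 9 members, Tubb2b was the 1 called higher in wild-type CD4 T cells, and the part of the T cell markers in its NK difference was not tested. Among 15 myeloid markers, 6 fell and none rose, with 11 at an unadjusted p below 0.05. Their summed intensity was 3869 to 6113 in Ets1-deficient NK cells, against 11864 to 12258 in Ets1-present NK cells. Apcdd1, Mreg and Ccdc88a were called higher in wild-type GMP, for Apcdd1 not when its probe sets were averaged. The part of the myeloid markers in their NK differences was not tested. B cell and erythroid markers had no calls among 11 and 9 genes, and none at an unadjusted p below 0.05. Their sums were 148 to 164 against 150 to 165 and 1267 to 1481 against 1265 to 1348. Of 12 NK markers 1 fell and none rose, with 5 at an unadjusted p below 0.05. Their list median was -0.31, against 0.01 over all genes. Fcgr3 differed by -1.22, Ncr1 by -1.10 and Prf1 by 1.06. Their sums, to which the brightest genes add most, were 30624 to 32688 against 29255 to 30864. Of 9 markers of other innate lymphoid and NKT cells, 1 rose and 2 fell, with 5 at an unadjusted p below 0.05. Their sums were 417 to 463 against 613 to 680.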

How the data were processed

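The deposited values are linear intensities per probe set, which the authors normalised by RMA (version not given in the sources used here), per the submitters' processing notes. Log2 was taken of the deposited values, with no pseudocount. Of 45101 probe sets, 34958 had 1 gene symbol in the platform annotation, 932 several and 9211 none, and 34754 matched RefSeq GRCm38.p6 by Entrez ID. A gene was its single-symbol probe set of highest mean. Testing was limited to genes that exceeded the median of their array in 2 or more samples (13479 of 18194). All 9 members did, and 5 of them pass without the Ets1-deficient arrays. Differences were fitted with limma 3.58.1 in R 4.3.3 (lmFit and eBayes with a trend, 1 model of 20 arrays and 9 groups, 11 residual degrees of freedom), with Benjamini-Hochberg adjustment over all tested genes. A call is an adjusted p below 0.05.

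The members and the gene lists were chosen with earlier results of these data known, so no count over them is independent evidence. Named genes were the members, up to 4 called non-members per pathway list with the largest difference (or the largest where none was called), 3 most alike genes per member, chromosome neighbours, the genes next below the smallest member in size, and Ets1. The fits were tested on simulated data. There the comparison of NK genotypes recovered 23.5% of changes of 1 log2 unit and 81.5% of changes of 2 log2 units. The F-test over wild-type populations recovered 27.2% and 87.8%. No arrays held identical values. Precision is limited by groups of 2 or 3 arrays. Alternatives were repeated quantile normalisation, centring on housekeeping genes (14 tested, none called between the NK genotypes and none at an unadjusted p below 0.05), other filters and probe set rules, NK arrays alone, a replicate block, and leaving out arrays.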

Additional observations from a re-analysis of the deposited data

How the results depend on the processing

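When every probe set of a gene was required to have both Ets1-deficient arrays above both Ets1-present ones, 5 of the 9 members had this order. For 4 of them, Tubb2b, Mreg, Khdc1a and Cdhr1, there is a single probe set, whose order the choice of genes fixes. Of the 5 genes with several probe sets, only Dixdc1 had this order in all of them. With probe sets averaged, the differences between Ets1-deficient and Ets1-present NK cells were 2.46 for Dixdc1, 2.61 for Scel, 1.40 for Apcdd1, 1.65 for Garem1 and 1.48 for Ccdc88a. Members differing among wild-type populations numbered 5, with 7 after housekeeping centring, 4 after repeated quantile normalisation and 4 to 6 when 1 array was left out. Calls of a member as higher in 1 population numbered 9, that of Dixdc1 in HSC included (8 to 11 without 1 array), and as lower 9 (4 after housekeeping centring, 8 to 13 without 1 array). Garem1 lost its call among populations after quantile normalisation (adjusted p = 0.0638) and without any of 6 wild-type arrays (adjusted p between 0.0609 and 0.0774). Without the first HSC array the range of Dixdc1 was 2.05, which rests on the 1 HSC array left. Since Dixdc1 entered the test only through the Ets1-deficient NK arrays, this range is not read as a difference among populations.

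Listed genes that rose between the NK genotypes numbered 4 (9 with the NK arrays alone, 4 to 5 without 1 array). Those that fell numbered 3, with 1 after repeated quantile normalisation, 0 after housekeeping centring, 7 with the NK arrays alone and 0 to 3 without 1 array. Evpl was not called after housekeeping centring (1.39, adjusted p = 0.124), and neither were Tmem14a (1.18) and Pecr (0.97). Directions reversed for Apcdd1 in GMP with averaged probe sets (-0.0036), and for Tubb2b and Ccdc88a in CLP after housekeeping centring (0.27 and 0.31). That centring moved the median of all genes in CLP against the other populations to 0.87 from -0.12, and between the NK genotypes to -0.18 from 0.01. For the other reversed value and the gained or lost calls the cause was not tested.

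Replicate numbers were not used to pair the samples in the main fit. Of 36 pairs of groups, the first replicates deviated together at r above 0.1 in 5 (range -0.23 to 0.37). These included HSC with MPP (0.37), HSC with CLP (0.22), MPP with CLP (0.16) and MPP with LMPP (0.12). The remaining pair was pro-B with CD4 T cells (0.13). Between the NK genotypes r was 0.01. Whether such groups shared a batch was not tested. With the replicate block, 5 members differed among populations, 10 calls were higher and 8 lower, and 4 listed genes rose and 3 fell. The low signal of Scel, Khdc1a, Cdhr1 and Dixdc1 outside the Ets1-deficient NK cells limits what can be seen there, since differences between populations at that signal may not be detectable.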
